A study of Danio rerio with 3 samples.

Results

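The cells described here were fibroblast-like cells of the lesioned zebrafish trunk with UMIs of sost, tmem88b, aldh1a2, pcolcea, col16a1 and c6. They were chosen by measured values: a barcode had to carry at least 1 UMI (a counted RNA molecule) of 3 or more of these 6 genes, of sost or tmem88b in any case, and of at most 3 of 8 limited genes (abi3bpb, tnn, matn4, dchs1a, ca6, TNC, fstb and crabp1b). Of 40973 barcodes that passed the filter on genes, UMIs and mitochondrial share, 2353 met the rule. There were 694 members among 13842 passing barcodes of gControl, 842 among 13655 of gSema4ab repeat 1 and 817 among 13476 of gSema4ab repeat 2.

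The study cut the spinal cord of zebrafish larvae at 3 days of age and profiled single cells of the tissue around the lesion a day later, with and without disruption of sema4ab, a semaphorin. The gControl larvae had been injected at the single-cell stage with a control guide RNA, and the gSema4ab larvae with a haCR, a highly active guide RNA that mutates its target in nearly all somatic cells. All larvae of both conditions were lesioned, and an unlesioned group was not analysed here. Each sample came from 50 larvae, and the 2 gSema4ab libraries are described as technical repeats, so each condition is 1 pool and the spread between animals cannot be measured. For that reason no p-value is given. Intervals are exact 95% limits of the counting error alone.

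Sclerostin, the product of sost, is a secreted inhibitor of Wnt signalling, and the membrane protein encoded by tmem88b belongs to a family that dampens Wnt signalling inside the cell. Aldh1a2 makes retinoic acid, a vitamin A derivative that patterns the trunk. Pcolcea encodes an enhancer of the enzyme that trims fibrillar procollagen, col16a1 a collagen that associates with fibrils, and c6 a component of the complement attack complex. Fibroblasts deposit matrix after injury, and cells that line body cavities and organs can express collagens as well as keratins and podocalyxin.

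By a count of general fibroblast genes, the label of fibroblast held for most members. In gControl 95.4% of members carried 5 or more of 9 fibroblast genes (pdgfra, pdgfrb and genes of collagens V, VI and XII and of mmp2), in gSema4ab 95.1% and 92.9%, against 2.47% to 3.07% of globin-rich barcodes, which serve as the measure of free RNA. Such counts depend on depth, which was not made equal here. Globin-rich barcodes had medians of 713.5, 639 and 667.5 genes in gControl and the 2 gSema4ab repeats, and members 2373.5, 2056 and 2115. The genes that led the members outside the rule were of another kind, however. They included podxl, jam2b, krt94, wt1a and myrf, which are known from the linings of body cavities and from cells around developing organs. Gcga and rbpms2a were among the leading genes too, at means of 202 and 476 CPM. Upk3b, another gene known from such linings, was at only 0 to 2.17 CPM in the 8 groups of members set apart below. The members are therefore called by their rule and not given another name. Of 11 endothelium markers, kdrl was at 38.9, 48.3 and 38.7 CPM (UMIs of the gene as a share of all UMIs of the members in a library, scaled to one fixed total) and cdh5 at 5.49, 0 and 8.34 CPM in gControl and the 2 gSema4ab repeats. The 11 markers summed to 159, 105 and 132 CPM in members. They summed to 110, 103 and 89.1 CPM in other fibroblast-like barcodes, which are no members but carry 5 or more of the same 9 genes. In globin-rich barcodes they summed to 17.5, 7.29 and 23.8 CPM. Smooth muscle and mural markers summed to 783, 791 and 723 CPM in members and to 273, 296 and 255 CPM in other fibroblast-like barcodes. Smooth muscle is not among the classes counted in the next paragraph.

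Markers of other cell types were present in some members. At thresholds set after the data had been seen, 125, 179 and 192 members carried those of at least 1 other type, epidermis being the most frequent class in gControl with 60 members. Skeletal muscle genes (6 or more of 12) were found in 23 of 694, 79 of 842 and 97 of 817 members, and in 3.54%, 11.4% and 14.9% of all passing barcodes. With 8 genes needed, a second setting tried after the first count was known, the members numbered 9, 10 and 17. The summed level of the 13 muscle markers in members was nevertheless 2280, 2372 and 1395 CPM. The 10 red blood cell markers, globin genes with alas2 and slc4a1a, were higher in repeat 2. They summed to 12556 CPM there, against 5169 CPM in gControl and 5185 CPM in repeat 1. The part of these differences in the results below was not tested, except where values without such members are given. Members had a median of 6806, 5980.5 and 6434 UMIs, and no barcode sequence was shared between members of different libraries.

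**Figure D1:**
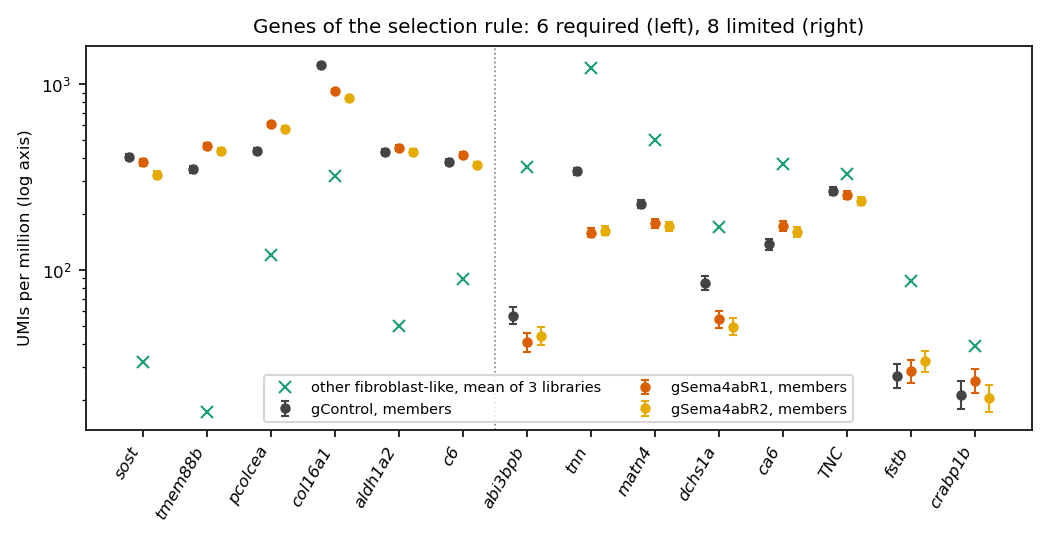
Levels of the 6 required and 8 limited genes in members of each library (points, CPM on a log axis, with exact 95% Poisson intervals) and the mean over libraries in other fibroblast-like barcodes (crosses). The required genes stand above the crosses because the rule selected them, and tnn is at 340.2 CPM in gControl and at 159.0 and 162.6 CPM in gSema4ab.

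The levels of the 6 required genes follow from the selection and are given as a description. Sost was at 405.2 CPM in gControl and at 379.0 and 325.8 CPM in gSema4ab, and at a mean of 32.0 CPM in other fibroblast-like barcodes. Tmem88b was at 348.4, 465.1 and 436.4 CPM, and pcolcea at 436.9, 609.8 and 576.3 CPM. Col16a1 was at 1273, 917.5 and 839.3 CPM. Both tmem88b and pcolcea were thus higher, and col16a1 lower, in both gSema4ab repeats than in gControl, by log2 ratios of 0.37, 0.44 and −0.54 (0.63, 0.69 and −0.28 with TMM factors, another scaling of the libraries). In other fibroblast-like barcodes the ratios of these 3 genes, without TMM factors, had the same signs, at 0.22, 0.28 and −0.86. Aldh1a2 (433.9, 452.0 and 431.9 CPM) and c6 (380.2, 414.3 and 368.0 CPM) lay close together in the 3 libraries. The UMIs of c6 came from 2 gene IDs of the same symbol and were added.

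At the edges of the rule, 165, 175 and 161 members had exactly 3 of the required genes, and 132, 148 and 150 other barcodes had only 2. On the side of the limited genes, 189, 199 and 219 members had 3, and 163, 123 and 129 barcodes were left out with 4. The level of sost was 479 CPM in the members with 3 limited genes and 468 CPM in the barcodes with 4, which met the other conditions of the rule. At 3 and at 2 required genes sost was at 176 and 139 CPM, tmem88b at 120 and 104 CPM and pcolcea at 176 and 34.9 CPM. The rule counted these genes, and the values are a description.

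**Figure D2:**
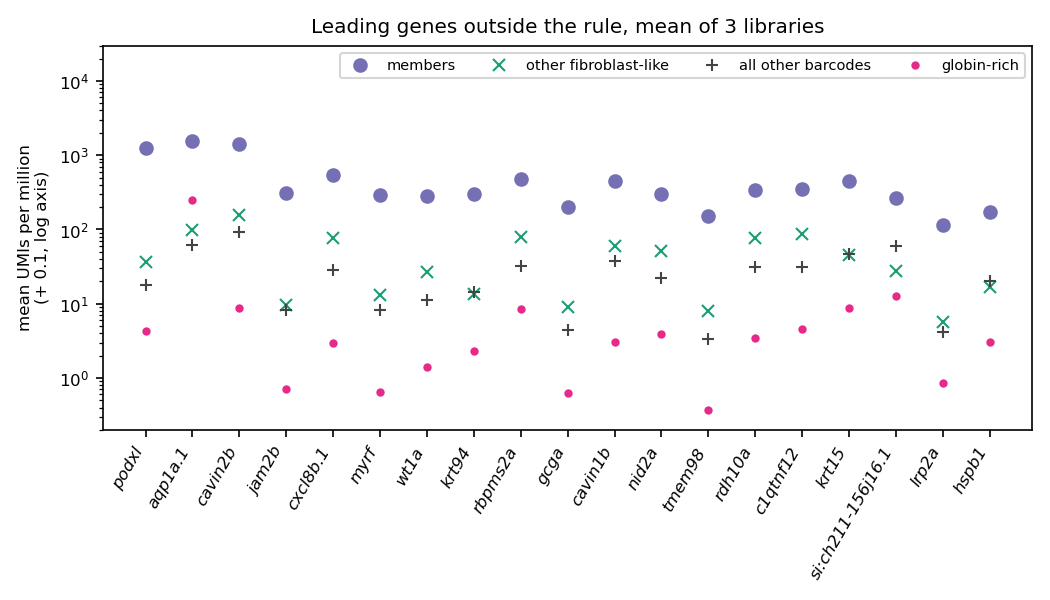
Mean level over the 3 libraries (CPM with 0.1 added, log axis) of the genes outside the rule with the highest ratio of members to other barcodes. Podxl was at 1240 CPM in members and 36.7 CPM in other fibroblast-like barcodes, and aqp1a.1 is the gene with a high level in globin-rich barcodes.

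Outside the rule, podxl, which encodes the sialomucin podocalyxin of the free cell surface, had the highest ratio to other barcodes. It was at 1289 CPM in gControl and at 1179 and 1252 CPM in gSema4ab, against 36.7 CPM in other fibroblast-like and 4.22 CPM in globin-rich barcodes. Barcodes with at least 2000 UMIs were also thinned to 2000 UMIs, and the rest left out. Podxl was then found in 44.6%, 50.9% and 48.3% of members, compared with 2.62% of other fibroblast-like and 0.708% of globin-rich barcodes. Cavin2b, a component of caveolae, was at 1432, 1471 and 1392 CPM. The junctional adhesion gene jam2b was at 279.9, 344.2 and 296.1 CPM and at 9.66 CPM in other fibroblast-like barcodes. These levels are not divided by gene length, which 3′ UMI counts do not need, and were compared between groups of cells only.

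The transcription factor genes wt1a, known from mesothelium and kidney, and myrf followed, wt1a with 323.4, 268.5 and 256.8 CPM and myrf with 378.4, 249.0 and 257.8 CPM. Krt94, a keratin, was at 315.9, 298.4 and 298.4 CPM. Rdh10a, which encodes the enzyme that makes the substrate of Aldh1a2, was at 322.3, 363.4 and 347.7 CPM and at 77.2 CPM in other fibroblast-like barcodes. The chemokine gene cxcl8b.1 was at 480.7, 607.8 and 516.6 CPM. The water channel gene aqp1a.1 was at 1317, 1629 and 1688 CPM, but red blood cells carry it too, and it was at 249.5 CPM in globin-rich barcodes.

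Of 2856 genes with a mean of 50 CPM and 20 UMIs in members, 199 (6.97%) were over 2-fold above other fibroblast-like barcodes in all 3 libraries, and 53 (1.86%) were over 2-fold below. The rule itself used this contrast, and nothing is read from these counts. Among complement genes, 3 of 8 were above, namely c6 and the lectins COLEC10 (61.5, 57.1 and 68.9 CPM) and colec11 (103, 94.9 and 107 CPM). Among Wnt antagonists 4 of 8 were above, with sfrp1b (90.6, 93.2 and 102 CPM) and frzb (74.4, 85.2 and 69.2 CPM) beside sost and tmem88b. The Wnt amplifiers rspo1 and rspo3 were also above. Of 13 retinoic acid genes, aldh1a2 and rdh10a were above and crabp2a, which encodes a retinoic acid binding protein, was below. Col6a1 and col6a2, at means of 1088 and 983 CPM, were above among the pan-fibroblast genes, whereas none of these 16 genes was below.

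The members were set beside tnn-type barcodes (4 or more of the limited genes), cdh11-type barcodes (cdh11, ebf3a and hapln1a) and fmoda-type barcodes (at least 2 of fmoda, thbs4b and cilp). Podxl was at a mean of 52.0 CPM in the 1162 tnn-type, 8.55 CPM in the 521 cdh11-type and 6.34 CPM in the 3138 fmoda-type barcodes. Wt1a was higher in cdh11-type barcodes, at 94.7 CPM, than in fmoda-type barcodes, at 2.53 CPM. Jam2b was at 17.9 CPM in tnn-type and 2.55 CPM in cdh11-type barcodes. Since the rule chose the members, these differences are a description.

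The members were not uniform. Of the members of gControl, 43.1% carried tmem88b without sost, 19.3% sost without tmem88b and 37.6% both, and the gSema4ab shares were 41.4% and 45.8%, 17.6% and 16.6%, and 41.0% and 37.6%. Podxl was at a mean of 2010 CPM in members with tmem88b alone, 834 CPM in those with both and 126 CPM in those with sost alone. Conversely tnn was at 536 CPM with sost alone and 169 CPM with tmem88b alone. In thinned members, jam2b was found in 64.9% of those with podxl and in 10.2% of those without, and krt94 in 52.4% and 7.45%.

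A further 8 groups of members were set apart by gene sets picked after a first clustering of these cells had been seen, each barcode needing 3 of the 6 genes of a set and more than of any other set. They describe the range of the members and are not tested. The name of a set does not mean that the gene was highest there. Ccl25b was at 7321 CPM in the alcamb set and at 6375 CPM in the ccl25b set. The ccl25b set held 427 members, the alcamb set 351, the cav1 set 310, the hoxa13 set 250, the cdh11 set 181, the msx1b set 149, the aqp1a.1 set 104 and the cilp set 96, and 485 members belonged to none. Of all passing barcodes with the alcamb set 65.1% were members, of those with the cilp set 2.96%.

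**Figure D3:**
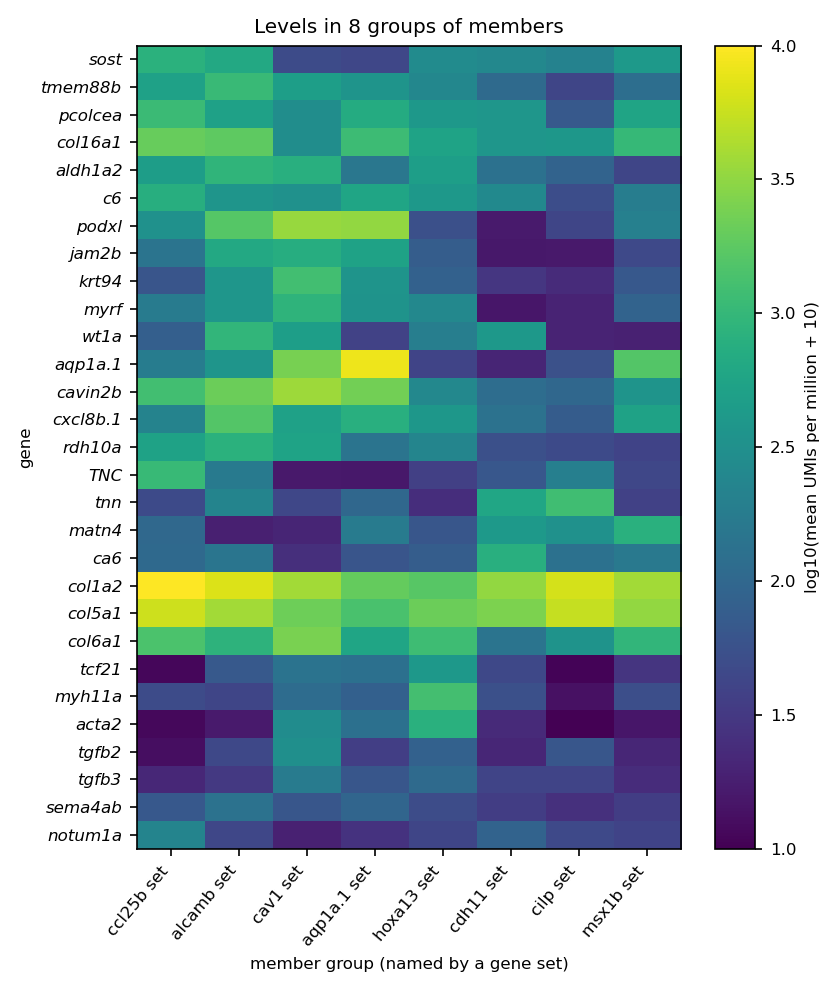
Mean levels over the 3 libraries (log10 of CPM with 10 added, colour) of rule genes, leading genes and other named genes (rows) in 8 groups of members defined by gene sets (columns). Podxl is high in the cav1 and aqp1a.1 sets and sost in the ccl25b and alcamb sets.

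Sost was at 808 CPM in the ccl25b set and 630 CPM in the alcamb set, but at 38.7 CPM in the cav1 set and 33.3 CPM in the aqp1a.1 set. Podxl was at 3441 and 3293 CPM in the cav1 and aqp1a.1 sets, 1615 CPM in the alcamb set and 320 CPM in the ccl25b set, and at 43.8, 32.3 and 6.31 CPM in the hoxa13, cilp and cdh11 sets. The fibroblast genes pdgfra and pdgfrb were lowest in the cav1 set, at 51.1 and 57.5 CPM. They were highest in the hoxa13 set (pdgfra, 494 CPM) and the cdh11 set (pdgfrb, 291 CPM). Col6a1, however, was highest in the cav1 set, at 2452 CPM. Aldh1a2 was highest in the alcamb set (903 CPM) and the cav1 set (771 CPM). The ccl25b set had the highest col1a2 (10004 CPM) and TNC (1048 CPM), and the hoxa13 set had the smooth muscle genes myh11a (1276 CPM) and acta2 (795 CPM). Tgfb2 and tgfb3, which encode secreted ligands of the TGF-beta family, were highest in the cav1 set, at 300.1 and 165 CPM.

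Members made up 5.01% of passing barcodes in gControl (4.66% to 5.39%), 6.17% in repeat 1 (5.77% to 6.58%) and 6.06% in repeat 2 (5.67% to 6.48%) of gSema4ab. The log2 ratio of gSema4ab to gControl was 0.29 (0.16 to 0.42). Barcodes under 2000 UMIs were then left out and the rest thinned to 2000 UMIs. The shares were 3.80% of 12181, 4.74% of 11782 and 4.84% of 11444 barcodes, and the log2 ratio was 0.33. Other fibroblast-like barcodes made up 29.5%, 27.2% and 27.5%. Of the 3 types set beside the members, fmoda-type barcodes made up 6.37%, 8.69% and 7.94%, cdh11-type 1.03%, 1.37% and 1.42%, and tnn-type 3.04%, 2.64% and 2.83%. The log2 ratios were 0.38 (0.27 to 0.50) for fmoda-type, 0.43 (0.15 to 0.72) for cdh11-type and −0.15 (−0.33 to 0.02) for tnn-type barcodes. A barcode of several types was left out of all 3, and tnn-type barcodes are defined by the limited genes. The cdh11 set of genes went the other way, with 6.57%, 5.54% and 5.56% of passing barcodes. Its log2 ratio was −0.24 (−0.36 to −0.12). Without members bearing markers of another cell type the log2 ratio of the share of members was 0.21. The share of members is counted with the rule's own genes, whose levels differed between conditions. In other fibroblast-like barcodes the limited genes tnn, dchs1a and TNC had log2 ratios of −0.61, −0.80 and −0.65. The other limited genes lay between −0.40 (matn4) and 0.36 (crabp1b) there. Barcodes left out by the limit alone numbered 274, 222 and 234. The part of these differences in the share was not tested. With 1 pool a condition, the guide and any other difference between the pools cannot be told apart.

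Between conditions, 46 of 2856 genes (1.61%) were over 1.5-fold higher and 167 (5.85%) over 1.5-fold lower in both gSema4ab repeats than in gControl, with a counting interval that left out 0. The split depends on the scaling. With TMM factors the median log2 ratio of the genes moved from −0.11 to 0.15, and 168 genes were higher and 49 lower. Without members bearing markers of another cell type 55 genes were higher and 225 lower. Between the 2 repeats 69 genes (2.42%) differed by over 1.5-fold in either direction. That count sets no condition on a counting interval and compares single libraries, so its rule is unlike that of the 46 and 167. In other fibroblast-like barcodes it was 6 of 2618 genes. The other barcodes come from the same 3 libraries, and their own values are given beside those of the members. The 46 higher genes had a median log2 ratio of 0.86 in members, 0.85 in other fibroblast-like and 0.61 in globin-rich barcodes. For the 167 lower genes the medians were −0.79, −0.69 and −0.86. Over all 2856 genes the medians were −0.11, −0.10 and −0.28 in the same order, so the baseline was lower in globin-rich barcodes.

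**Figure D4:**
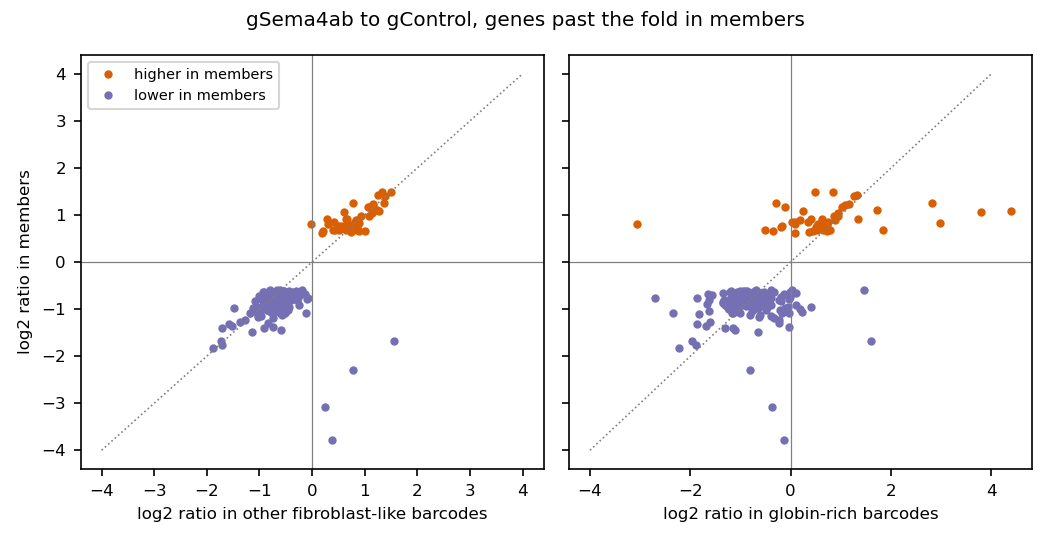
Log2 ratio of gSema4ab to gControl in members (vertical) against the same ratio in other fibroblast-like (left) and globin-rich barcodes (right), for the 46 genes higher and 167 lower in members. The dotted line marks equal ratios. Both axes use the same 3 libraries, and the 4 points at the lower right of the left panel include si:dkey-21e2.13 at −3.77 and apoc1 at −1.68 in members.

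Among the higher genes were rpl38, rps29 and rpl29 of the ribosome, with log2 ratios of 1.23 for rpl38 and 1.16 for rpl29, and of 1.16 and 1.02 in globin-rich barcodes. These were extremes. Of 80 cytosolic ribosomal protein genes 7 were higher and none lower, beside 1.61% and 5.85% of all genes tested. Their median log2 ratio was 0.25 in members, 0.20 in other fibroblast-like and 0.17 in globin-rich barcodes. Rps29 was at 1276, 2977 and 2898 CPM. Among the lower genes ccn1, which encodes a matrix protein of wound tissue, was at 226.4 CPM in gControl and at 63.8 and 68.7 CPM in gSema4ab. Its log2 ratio was −1.77 (−1.89 to −1.65) in members and −1.89 in globin-rich barcodes. The ratio of ccn1 was thus about as large in globin-rich barcodes as in members, though the median over all genes was lower there. The lowest ratio, −3.77, belonged to si:dkey-21e2.13, of which 1 barcode held 63.2% of the UMIs in members. Of 12 epidermis markers krt5, epcam and cldni were lower, beside 5.85% of all genes tested, and with TMM factors only epcam was. The summed level of the list was 8596, 3912 and 6477 CPM in members and 21122, 13022 and 13608 CPM in other fibroblast-like barcodes.

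The genes named next had a ratio of larger size in members than in other fibroblast-like barcodes, a difference that was not tested. They are examples picked from more such genes. Of the 46 higher genes 35, and of the 167 lower genes 110, were over 1.5-fold on the same side in other fibroblast-like barcodes too. Notum1a, which encodes a secreted inhibitor of Wnt ligands, was at 101.6, 38.1 and 36.9 CPM, with a log2 ratio of −1.44 (−1.61 to −1.27) against −0.59 in other fibroblast-like and −1.11 in globin-rich barcodes. Tnn, a tenascin, had −1.08 against −0.61, but the rule limited it in members and not in the other barcodes. Nothing is read from that difference. Lum, a collagen-binding proteoglycan, was at 162, 310 and 259 CPM, with 0.81 against 0.31. The ccl25b set, in which lum was at 561 CPM, made up 13.5% of members in gControl and 20.4% and 19.7% in gSema4ab, and within it the log2 ratio of lum was 0.81. The hoxa13 set made up 13.1%, 9.62% and 9.55% of members. Of all passing barcodes, the ccl25b set made up 3.36%, 4.97% and 5.18%, and the hoxa13 set 1.92%, 2.21% and 1.84%. Lum was highest in the aqp1a.1 set, at 686 CPM, with a log2 ratio of 0.72 within it. That set made up 4.61%, 4.16% and 4.53% of members. Within the cilp, msx1b, alcamb and cdh11 sets the log2 ratio of lum was 0.70, 0.57, 0.32 and −0.08. The ratio was −0.60 within the cav1 set and −1.38 within the hoxa13 set, where it rests on 13, 2 and 6 UMIs. These sets were picked after the data had been seen, and the part of the make-up of the members in the ratios was not tested. C4b, a complement component, was at 119, 236 and 210 CPM, with 0.90 against 0.28, and its ratio lay between 0.42 and 1.65 within the 8 sets, the lowest in the hoxa13 set, where the repeats were at 152 and 15.6 CPM against 62.6 CPM in gControl. Rbp5, a retinol binding protein gene, had 0.91 against 0.66.

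The lists are read beside the share of all genes tested, of which 5.85% were lower and 1.61% higher. Basement membrane genes had 7 of 15 lower and none higher. Their median log2 ratio was −0.63 in members, −0.61 in other fibroblast-like and −0.82 in globin-rich barcodes. Over all genes tested it was −0.11, −0.10 and −0.28 in the same order. The laminin gene lama5 was at 131, 57.8 and 58.6 CPM and lamc1 at 168, 85.6 and 90.6 CPM, and with TMM factors only these 2 genes of the list were lower. Of 29 immediate early genes 4 were lower (fosb, junbb, klf9 and dusp1; klf9 and dusp1 with TMM factors) and none higher. Of 16 pan-fibroblast genes lum was higher and pdgfrb lower, pdgfrb not with TMM factors. Of 13 retinoic acid genes dhrs3b and rbp5 were higher, and of 8 Wnt antagonists notum1a and sfrp1a were lower, sfrp1a not with TMM factors. None of 22 BMP genes and none of 10 fibrillar collagen genes passed the fold in either direction, but with TMM factors the BMP gene fstl1a was higher. Nothing is read from the counts of 1 or 2 genes in a list.

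Sema4ab itself was at 69.7 CPM in gControl members and at 46.3 and 47.9 CPM in gSema4ab, a log2 ratio of −0.57 (−0.74 to −0.39), which did not pass the fold in both repeats. Over all barcodes it was at 50.0, 29.1 and 30.2 CPM. A guide-induced mutation need not lower the RNA, so this level does not check the disruption. Tgfb3 was at 68.0, 49.5 and 40.0 CPM and tgfb2 at 88.4, 64.8 and 61.7 CPM, with log2 ratios of −0.60 and −0.48. In other fibroblast-like barcodes the ratios were −0.60 for tgfb3 and −0.24 for tgfb2. Tgfb1a was at 96.7, 114.6 and 92.4 CPM, and tgfb1b was at 3.77, 4.22 and 3.96 CPM, under the minimum level. Tgfb1a, tgfb2 and tgfb3 did not pass the fold in members, and with TMM factors the ratios of tgfb2 and tgfb3 in members were −0.23 and −0.35.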

How the data were processed

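The data were 3 10x single-cell libraries, 1 of gControl and 2 of gSema4ab. The authors deposited UMI counts per gene and barcode, made with Cell Ranger 7.1.0 on GRCz11 per the labels. Barcodes with at least 200 genes, 500 to 50000 UMIs and under 20% mitochondrial UMIs passed. Doublets were not removed, except in an alternative with the highest Scrublet scores left out (0.8% of a library per 1000 barcodes), since the threshold Scrublet set itself called 467, 0 and 0 barcodes. UMIs of IDs with 1 symbol were added, and members' UMIs were summed per library (6369692, 6867688 and 7078341). Log2 ratios used 0.5 added UMIs and ratios of levels 20 added CPM. With 1 pool a condition edgeR 4.0.16 served only for TMM and median of ratios factors. The calling of genes was also run on simulated counts with counting error alone. That run cannot speak to differences between pools, to the scaling or to UMIs held by single barcodes.

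The members and gene lists were chosen with earlier results of these data known. The named genes were the rule genes, up to 15 with the highest ratio to other barcodes, up to 12 with the highest and lowest ratios past the fold, list genes, sema4ab and the tgfb genes. The gene sets and the thresholds for markers of other cell types were chosen after the data had been seen, and 2 thresholds were tried for skeletal muscle.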

Additional observations from a re-analysis of the deposited data

Results flagged for a closer look

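Apoc1, an apolipoprotein gene, was lower in members of both gSema4ab repeats (log2 ratio −1.68) but higher in other fibroblast-like barcodes of both (1.39 and 1.69), and si:dkey-21e2.16 was likewise lower in members (−2.29) and higher there (0.76 and 0.81). These differences between cell groups were not tested. A single barcode held 18.8% of the apoc1 UMIs and 37.9% of the si:dkey-21e2.16 UMIs in members. The share of members with a UMI was not lower in gSema4ab. It was 3.17% in gControl and 5.23% and 3.30% in gSema4ab for apoc1, and 4.90%, 5.23% and 5.75% for si:dkey-21e2.16.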

How the results depend on the processing

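The higher share of members in gSema4ab kept its direction under every alternative run, and without replicate 1 or 2 its log2 ratio was 0.27 to 0.30. The counts of genes past the fold did not keep their size. They were 168 higher and 49 lower with TMM factors, 151 and 50 with median of ratios factors, 372 and 3028 with no minimum level beyond 1 UMI, and 13 and 26 at a mean of 200 CPM. Leaving out 1 gSema4ab replicate gave 67 to 70 higher and 290 to 302 lower genes, since 1 library then had to pass the fold. With at most 1 limited gene, 15 of the 24 named genes stayed past the fold. Adding 5 in place of 20 CPM moved the median log2 level of leading genes from 2.86 to 3.50. Of 894 single-gene values under the alternatives, 589 stayed the same, 300 moved and 5 changed sign. A moved value is a ratio outside its main counting interval, or a leading gene's level shifted by 1.5-fold or more. The sign changed for BX649485.2 with 4 required genes (0.39), si:dkey-21e2.8 (1.03), si:dkey-21e2.16 (0.66) and CABZ01074130.1 (1.501) with at most 1 limited gene, and and3 without members bearing markers of another cell type, an alternative chosen after seeing the data (1.14). The cause was not tested. No paired analysis was possible because gControl has 1 library.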
